A study of Rattus norvegicus with 9 samples.

Results

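Endoplasmic reticulum (ER)-associated degradation (ERAD) was described here through 10 genes, Sel1l, Syvn1, Herpud1, Edem1, Edem2, Edem3, Derl1, Derl2, Derl3 and Os9, chosen by symbol from the 20645 genes of the expression table. All 10 were found, and all 10 passed the filter on low values, a mean of at least 1 FPKM over the 9 libraries. FPKM is the number of fragments divided by transcript length and by the mapped fragments in that library, so that levels can be compared between genes. The cells were INS-1E, an insulin-secreting line derived from a rat insulinoma, and no other line was used. They were kept for 24 h with fatty acid-free BSA, the carrier protein for fatty acids (BSA group), with palmitic acid, a saturated fatty acid (PA group), or with palmitic acid and cyanidin-3-O-glucoside, a plant anthocyanin (PA + C3G group). Each group had 3 libraries. C3G was always given together with PA, so its effect on cells without PA was not measured.

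ERAD removes proteins that fail to fold in the ER. Misfolded glycoproteins are trimmed by the EDEM mannosidases and read by lectins such as OS9, which hand them to a ubiquitin ligase in the ER membrane, HRD1 (the product of Syvn1), held together by its adaptor SEL1L and the scaffold HERP (Herpud1). Derlins, relatives of the rhomboid proteases without protease activity, form part of the path through the membrane, the ATPase p97 (Vcp) pulls the substrate out, and the proteasome degrades it. Beta cells load their ER heavily with proinsulin, a share of which misfolds, and several ERAD genes are targets of the unfolded protein response, the programme that cells start when misfolded proteins build up in the ER.

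The libraries held between 45559993 and 66730721 estimated counts, and no pair was identical. All 10 markers of beta cells looked for were above 1 FPKM. Their summed level, which insulin leads, ran from 49080 to 49790 FPKM in BSA, from 22230 to 22740 in PA and from 46650 to 52240 in PA + C3G. Single markers moved differently. In PA, Nkx6-1 and Neurod1 overlapped BSA, and the other markers were lower in every library. In PA + C3G, Ins1 (29170 to 36220 against 24630 to 27700 in BSA), Nkx6-1 and Chga lay above BSA. Ins2 (6364 to 7700 against 12850 to 15320), Slc2a2, Pcsk1 and Mafa lay below BSA, and the others overlapped it. Of 20 markers of other islet, acinar, ductal, immune, endothelial and fibroblast cells, 11 were in the table. Of these, 8 stayed below 1 FPKM in every library, and the sum of all 11 did not pass 36.5 FPKM in any library. The 3 above were Gcg (alpha cell), Sox9 (ductal) and Pdgfra (fibroblast). Gcg ran from 8.28 to 31.2 FPKM in BSA, 1.35 to 6.02 in PA and 4.17 to 22.45 in PA + C3G. Sox9 ran from 2.52 to 2.72, 4.52 to 5.86 and 3.05 to 3.87 in the same order. Pdgfra ran from 2.02 to 2.60, 3.05 to 3.52 and 2.56 to 2.79. The lower sum of the beta-cell markers in PA went with the rise of the ERAD genes described next, and its part in that rise was not tested. In bulk RNA, fewer cells of a type and less RNA per cell cannot be told apart. The labels do not say whether the 3 libraries of a group came from separate cultures, so p-values measure the spread between these libraries, which may be technical.

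The first question was what PA did to the ERAD genes. All 10 rose in PA relative to BSA, from 1.3-fold for Edem1 to 3.50-fold for Derl3, with a median log2 fold change of 0.78 against 0.0030 over all 12958 genes tested. The genes with the widest changes, Derl3, Sel1l, Edem2, Herpud1 and Os9, more than doubled, and the other 5 rose by 1.3- to 1.44-fold. Each was called by edgeR's quasi-likelihood test on the estimated counts, with Benjamini-Hochberg adjustment over all genes tested and a threshold of 0.05 (named edgeR adjusted p from here on), and the largest edgeR adjusted p among the 10 was 0.00131. Of all genes tested, 25.8% were called higher and 25.2% lower in the same comparison, and 3.30% were higher by more than 2-fold with an unadjusted p under 0.05. The 3 PA libraries lay above the 3 BSA libraries without overlap for 10 of 10 ERAD genes, as they did for 28.0% of all genes tested.

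The second question was what C3G changed in cells given PA. Relative to PA alone, 7 of the 10 genes fell in PA + C3G, namely Derl3, Edem1, Herpud1, Sel1l, Edem3, Edem2 and Syvn1, and Derl1, Derl2 and Os9 did not pass the test. The median log2 fold change of the 10 was −0.20, against −7e-04 over all genes. Called lower in this comparison were 10.2% of all genes tested, and 11.1% were called higher. The calls for Derl3, Edem1, Herpud1 and Sel1l held in every alternative fit, whereas those of Edem2 and Syvn1 were lost in 4 of these fits each and that of Edem3 in 7. Without PA replicate 1 and without PA + C3G replicate 3 the count of lower genes was 4 in each case. The balance over all genes depends on the scaling, with 1436 genes higher and 1316 lower after TMM normalization, 775 higher and 2525 lower when each library was scaled to the same FPKM sum, and 1065 higher and 1636 lower under limma on log2(FPKM + 1).

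Relative to BSA, 9 of the 10 genes were still higher in PA + C3G, the exception being Edem1, and their median log2 fold change was 0.56, against 0.0067 for all genes. In this comparison 19.0% of all genes tested were called higher and 17.9% lower, a balance of 2462 higher to 2321 lower that became 1891 to 3038 with an equal FPKM sum for every library and 1850 to 3091 under limma on log2(FPKM + 1). The 3 comparisons share libraries, each group entering 2 of them, so their values are set side by side and not counted as separate evidence. In the plot of changes, the points for PA + C3G against BSA sit between zero and those for PA against BSA in 8 genes, and depart from this for Os9 and Edem1.

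**Figure D1:**
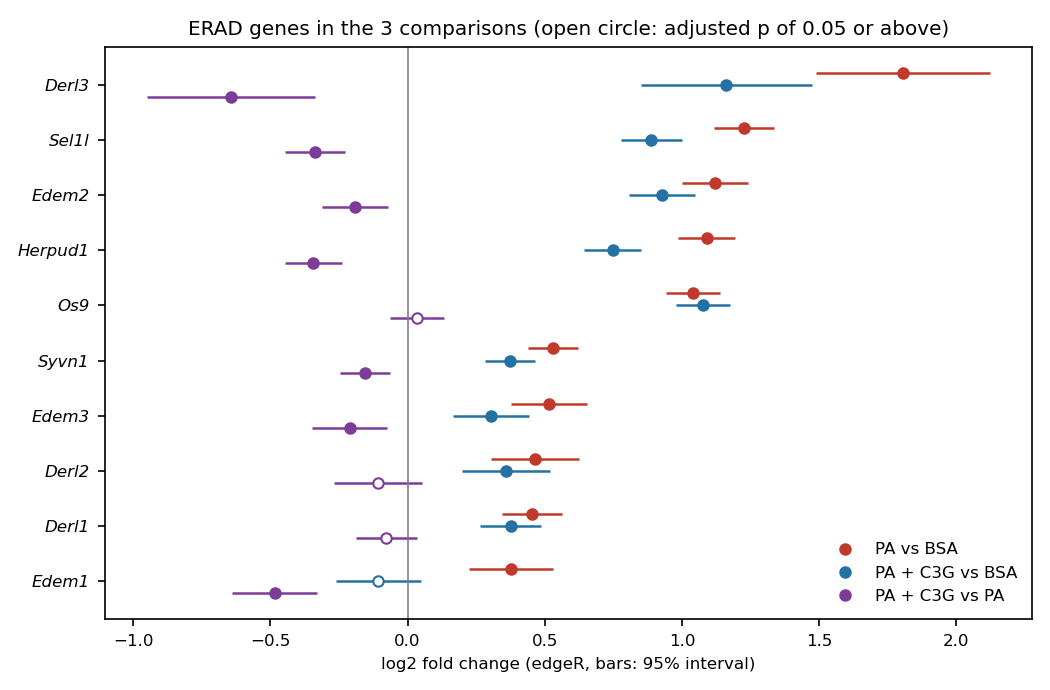
Log2 fold changes of the 10 ERAD genes (points, edgeR) with 95% intervals (bars) on the x axis for PA against BSA, PA + C3G against BSA and PA + C3G against PA, with open circles where the adjusted p was 0.05 or above. Every gene is above 0 in PA against BSA, 7 are below 0 with filled circles in PA + C3G against PA, and Os9 has nearly the same value against BSA with and without C3G.

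The ligase complex came first. Sel1l (ENSRNOG00000004464, chromosome 6, 115572649 to 115616859, minus strand, in the authors' table, whose genome build is not given in the sources used here) encodes the adaptor that stabilises HRD1 and brings substrates to it. Its level was 45.4, 42.4 and 41.4 FPKM in the BSA libraries, 97.3, 101 and 98.9 in the PA libraries, and 72.1, 80.5 and 76.5 in the PA + C3G libraries. The 3 groups did not overlap, with PA + C3G between the other two. Sel1l rose 2.34-fold in PA (log2 fold change 1.23, SE 0.049, edgeR adjusted p = 8.54e-08) and fell with C3G by 0.34 on the log2 scale (SE 0.049, edgeR adjusted p = 0.00168). In PA + C3G it was still above BSA (log2 fold change 0.89, SE 0.049, edgeR adjusted p = 1.11e-06).

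Syvn1 (ENSRNOG00000020950, chromosome 1, 221409271 to 221417886, plus strand) encodes the ligase itself, and moved less than its adaptor. It was measured at 40.7, 41.1 and 41.6 FPKM in BSA, 60.5, 57.5 and 57.0 in PA, and 53.3, 50.1 and 49.8 in PA + C3G. Again no library of one group reached those of another. The rise in PA was 1.44-fold (log2 fold change 0.53, SE 0.040, edgeR adjusted p = 4.08e-06), and the difference between PA + C3G and PA was −0.16 (SE 0.040, edgeR adjusted p = 0.0232), a call lost without PA replicate 1 or 2 and without PA + C3G replicate 2 or 3. Syvn1 overlaps Mrpl49, a mitochondrial ribosomal protein gene on the opposite strand, by 551 bases in the authors' table, and Mrpl49 was at 42.8 ± 2.25 FPKM in BSA, 26.1 ± 3.57 in PA and 36.6 ± 0.813 in PA + C3G (SD, n = 3). Whether reads were counted by strand is not stated, so a part of either value may belong to the other gene.

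The ratio of ligase to adaptor mRNA does not depend on how a library is scaled. There were 0.958 ± 0.056 Syvn1 FPKM for each Sel1l FPKM in BSA, 0.590 ± 0.028 in PA and 0.671 ± 0.061 in PA + C3G (SD, n = 3). The BSA libraries lay above those of both other groups without overlap, and PA and PA + C3G overlapped. The difference between PA and BSA was −0.70 on the log2 scale (SE 0.063, two-sided exact permutation test, p = 0.10), where 3 libraries against 3 cannot give a p below 0.10. Over the 21 tests made on 7 such ratios, the smallest Benjamini-Hochberg adjusted p was 0.162, so none passed a threshold of 0.05.

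Herpud1 (ENSRNOG00000018796, chromosome 19, 11046909 to 11057254, minus strand) encodes a membrane scaffold with a ubiquitin-like domain that assembles the HRD1 complex and is itself short-lived. Its levels were 80.8, 75.4 and 77.9 FPKM in BSA, 165, 153 and 171.5 in PA, and 129, 122.5 and 125 in PA + C3G. The groups were apart, and the PA libraries spread most. Herpud1 rose 2.13-fold in PA (log2 fold change 1.09, SE 0.047, edgeR adjusted p = 1.16e-07) and fell by 0.34 with C3G (SE 0.046, edgeR adjusted p = 0.00114). Its ratio to Sel1l was 1.81 ± 0.059 in BSA, 1.65 ± 0.11 in PA and 1.65 ± 0.14 in PA + C3G (SD, n = 3). PA lay below BSA without overlap, by 0.14 on the log2 scale (SE 0.064, two-sided exact permutation test, p = 0.10, the smallest possible). PA + C3G overlapped both. Between PA + C3G and PA the log2 difference was −0.0033 (SE 0.090, two-sided exact permutation test, p = 0.90).

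The promoter of Herpud1 is shown because it holds a known stress element. The ER stress response element II has the sequence ATTGGNCCACG, where N is any base, and is bound by the unfolded protein response factors ATF6 and XBP1 together with the factor NF-Y. In the RefSeq sequence of build GRCr8 it was found on the gene's strand at bases −124 to −114 from the start of transcription, within chr19:10614806-10614846 (minus strand), printed below in the direction of the gene with the element in capitals. The element was searched on both strands from 250 bases before to 50 bases after the start of 33469 promoters, and 17 of them (0.0508%) held it. Herpud1 was the one among the 8 ERAD genes with a promoter sequence.
Herpud1 promoter: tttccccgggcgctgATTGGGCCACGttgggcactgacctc

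**Figure D2:**
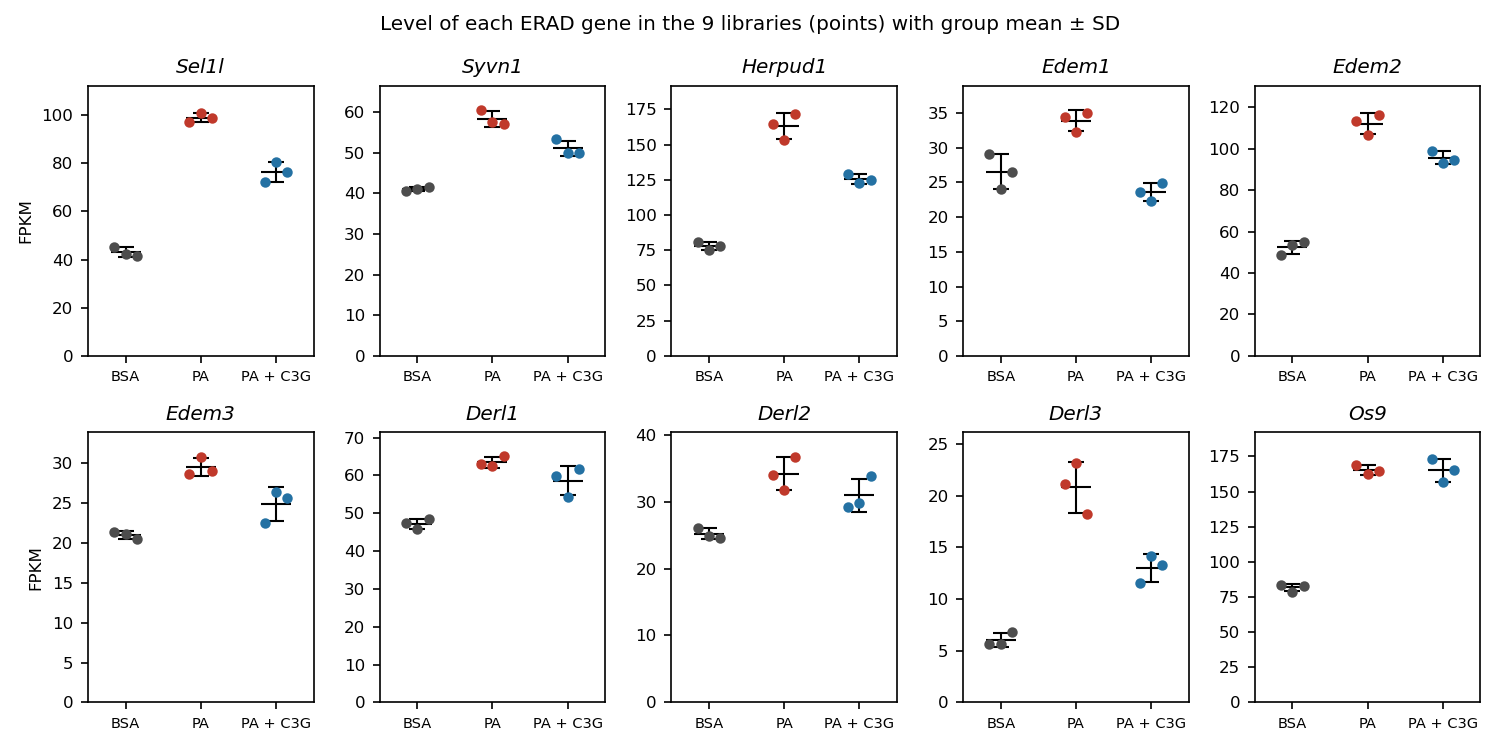
FPKM (y axis, from 0) of each ERAD gene in the 9 libraries (points) by group (x axis), with the group mean and SD (bars). The PA libraries lie above all others in 8 of the panels, whereas for Derl2 and Os9 the PA and PA + C3G libraries overlap, for Os9 at 157 to 173 FPKM.

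Recognition of misfolded glycoproteins was represented by Os9 and the EDEM genes. Os9 (ENSRNOG00000025570, chromosome 7, 70380311 to 70407177, minus strand) encodes a lectin that binds trimmed glycans and docks on SEL1L. Its level was 83.7, 78.8 and 82.9 FPKM in BSA, 169, 162.5 and 165 in PA, and 173, 157 and 165 in PA + C3G. The PA and PA + C3G libraries overlapped, and both lay about the same distance above BSA. Os9 rose 2.06-fold in PA (log2 fold change 1.04, SE 0.044, edgeR adjusted p = 1.06e-07). The difference between PA + C3G and PA was 0.0345 (SE 0.043, 95% interval −0.062 to 0.13, edgeR adjusted p = 0.627), and its sign turned when each library was scaled to the same FPKM sum (−0.055), under limma on log2(FPKM + 1) or log2(FPKM + 0.1) (−0.0032 in each), and without PA + C3G replicate 1 (−0.0044).

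Os9 was also set against Sel1l, on whose product its own product docks. The Os9 to Sel1l ratio was 1.902 ± 0.088 in BSA, 1.67 ± 0.062 in PA and 2.17 ± 0.22 in PA + C3G (SD, n = 3). The PA + C3G libraries were above the PA libraries without overlap, and the difference was 0.37 on the log2 scale (SE 0.092, two-sided exact permutation test, p = 0.10, the smallest possible, and 0.162 after adjustment). Of the excess in mean FPKM that Os9 showed in PA over BSA, 99.6% was still there in PA + C3G, against 59.6% for Sel1l, 57.6% for Syvn1 and 55.7% for Herpud1. The other genes ran from −39.7% for Edem1 to 70.5% for Derl1 and 72.4% for Edem2. On the TMM-normalized scale the same shares were 105% for Os9, 63.5% for Sel1l, 66.7% for Syvn1 and 60.1% for Herpud1. There the others ran from −23.8% for Edem1 to 76.9% for Edem2 and 80.7% for Derl1.

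Edem1 (ENSRNOG00000055365, chromosome 4, 140886545 to 140915779, plus strand), the founding member of the EDEM family, which speed the release of misfolded glycoproteins from folding, was the gene that C3G brought down furthest relative to its rise. It stood at 29.1, 24.1 and 26.5 FPKM in BSA, 34.5, 32.3 and 35.0 in PA, and 23.7, 22.4 and 24.9 in PA + C3G. PA was above both other groups, and PA + C3G overlapped BSA. Edem1 had the smallest rise of the 10 genes in PA (log2 fold change 0.38, SE 0.069, edgeR adjusted p = 0.00131) and fell by 0.48 with C3G (SE 0.069, edgeR adjusted p = 0.00162). Against BSA the difference was −0.11 (SE 0.069, 95% interval −0.26 to 0.048, edgeR adjusted p = 0.261).

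Edem2 (ENSRNOG00000019299, chromosome 3, 151232751 to 151258580, minus strand) encodes the mannosidase that makes the first cut of the glycan in this pathway. It was at 48.8, 53.4 and 55.1 FPKM in BSA, 113.5, 106.5 and 116 in PA, and 99.1, 93.3 and 94.6 in PA + C3G. The 3 groups did not overlap, and the step from BSA to PA was far larger than that from PA to PA + C3G. Edem2 rose 2.18-fold in PA (log2 fold change 1.12, SE 0.054, edgeR adjusted p = 2.25e-07) and fell by 0.19 with C3G (SE 0.053, edgeR adjusted p = 0.0298). The last call was lost without PA replicate 1 or 3 and without PA + C3G replicate 2 or 3, with an edgeR adjusted p of up to 0.107.

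Edem3 (ENSRNOG00000028358, chromosome 13, 69135128 to 69199511, plus strand) encodes a mannosidase that trims glycans further. Its values were 21.4, 21.1 and 20.5 FPKM in BSA, 28.6, 30.8 and 29.0 in PA, and 22.4, 26.4 and 25.7 in PA + C3G. PA + C3G replicate 1 was close to the BSA libraries and the other two libraries of its group lay nearer to PA. Edem3 rose 1.43-fold in PA (log2 fold change 0.51, SE 0.062, edgeR adjusted p = 8.42e-05) and fell by 0.21 with C3G (SE 0.061, edgeR adjusted p = 0.0367), a call lost with only the groups compared in the fit, without BSA replicate 3, without any 1 of the PA libraries, and without PA + C3G replicate 1 or 3. A second gene model on the opposite strand, AABR07021384, overlaps Edem3 by 477 bases in the table, at 7.32 to 10.4 FPKM in group mean. Here too a part of either value may belong to the other gene.

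The make-up of the EDEM family was compared as shares of its summed FPKM. The sum went from 100 ± 1.86 FPKM in BSA to 175.5 ± 5.50 in PA and 144 ± 1.79 in PA + C3G (SD, n = 3). Edem2 was 52.4 ± 2.86% of that sum in BSA, 63.9 ± 0.93% in PA and 66.4 ± 1.65% in PA + C3G. Edem1 was 26.6 ± 2.5%, 19.3 ± 0.25% and 16.4 ± 0.70% in the same groups. The Edem1 to Edem2 ratio separated all 3 groups, at 0.510 ± 0.077, 0.303 ± 0.0012 and 0.247 ± 0.014. Its log2 difference was −0.74 for PA against BSA (SE 0.12) and −0.29 for PA + C3G against PA (SE 0.045), each with the smallest p that 3 against 3 libraries allow (two-sided exact permutation test, p = 0.10).

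Derlins were the third group. Derl1 (ENSRNOG00000005551, chromosome 7, 97737178 to 97759852, minus strand) and Derl2 (ENSRNOG00000055466, chromosome 10, 57644207 to 57653359, minus strand) encode the members found in most tissues. Derl1 was at 47.3, 45.7 and 48.5 FPKM in BSA, 62.9, 62.4 and 65.1 in PA, and 59.9, 54.4 and 61.7 in PA + C3G. Derl2 was at 26.1, 24.9 and 24.5 FPKM in BSA, 34.0, 31.8 and 36.7 in PA, and 29.3, 29.8 and 33.8 in PA + C3G. Both were higher in every PA and PA + C3G library than in any BSA library, and for Derl2 the PA and PA + C3G libraries overlapped.

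In PA, Derl1 rose 1.37-fold (log2 fold change 0.45, SE 0.049, edgeR adjusted p = 4.24e-05) and Derl2 1.38-fold (log2 fold change 0.46, SE 0.072, edgeR adjusted p = 0.000458). The differences between PA + C3G and PA did not pass the test, at −0.077 for Derl1 (95% interval −0.19 to 0.033, edgeR adjusted p = 0.306) and −0.11 for Derl2 (95% interval −0.27 to 0.054, edgeR adjusted p = 0.332). With each library scaled to the same FPKM sum, Derl1 was called lower (−0.17, edgeR adjusted p = 0.0384). In that fit the median over all genes tested was −0.0899, with 775 genes called higher and 2525 lower. The Derl2 to Derl1 ratio was 0.534 ± 0.025 in BSA, 0.538 ± 0.027 in PA and 0.528 ± 0.034 in PA + C3G (SD, n = 3), and the groups overlapped in each comparison.

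Derl3 (ENSRNOG00000028243, chromosome 20, 13704314 to 13706205, minus strand), a derlin best known from secretory tissues and from the unfolded protein response, had the lowest level and the widest change of the 10 genes. It was at 5.62, 5.69 and 6.85 FPKM in BSA, 21.1, 23.1 and 18.2 in PA, and 11.6, 14.2 and 13.3 in PA + C3G. The groups were apart, with PA + C3G near the middle. Derl3 rose 3.50-fold in PA (log2 fold change 1.81, SE 0.14, edgeR adjusted p = 4.77e-06) and fell by 0.64 with C3G (SE 0.14, edgeR adjusted p = 0.0103). It rests on 222 to 1091 estimated counts per library, and its SE was the largest of the 10. The gene overlaps Smarcb1, a chromatin remodelling gene on the opposite strand, by 618 bases in the table. Smarcb1 was at 24.5 ± 0.95, 28.5 ± 1.66 and 23.9 ± 0.76 FPKM in BSA, PA and PA + C3G (SD, n = 3), above Derl3 in each group. As for Syvn1, a part of either value may belong to the other gene.

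The promoter of Derl3 is printed as the second of the ERAD genes with a full stress element. The ER stress response element has the sequence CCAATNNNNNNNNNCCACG, bound by the same factors. In the RefSeq sequence of build GRCr8 it lay on the opposite strand at bases −154 to −136, within chr20:12766586-12766634 (minus strand), so that the capitals below, which read in the direction of the gene, are its reverse complement. It was found in 22 of the 33469 promoters (0.0657%), and Derl3 was the one ERAD gene among them.
Derl3 promoter: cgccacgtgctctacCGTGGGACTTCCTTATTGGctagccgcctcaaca

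Promoters were at hand for 8 of the 10 genes, all but Derl1 and Os9. The short core CCACG, which both elements contain, was found in 7 of these 8, all but Derl2. It was in 31.6% of all 33469 promoters, whether or not their genes were tested. In Edem2 its only match lay after the start, at bases 20 to 24. The core TGACGTG of the unfolded protein response element was in 1.81% of all promoters and in 0 of the 8. A match is a description of the letters in this window and does not show that a factor bound there. Over all genes tested that had a promoter sequence, 25 carried an ER stress response element of either kind, and 17 of these (68.0%) were called higher and 7 (28.0%) lower in PA, whereas 28.1% of 9032 tested genes with a promoter were called higher and 27.1% lower. Relative to PA, 12 of the 25 (48.0%) were called lower and 3 (12.0%) higher in PA + C3G, against 11.6% and 12.0% of the 9032. Herpud1 and Derl3 are among the 25, as are Calr and Canx, which belong to the wider ERAD list described below. These counts are therefore not separate evidence, and what caused them was not tested.

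**Figure D3:**
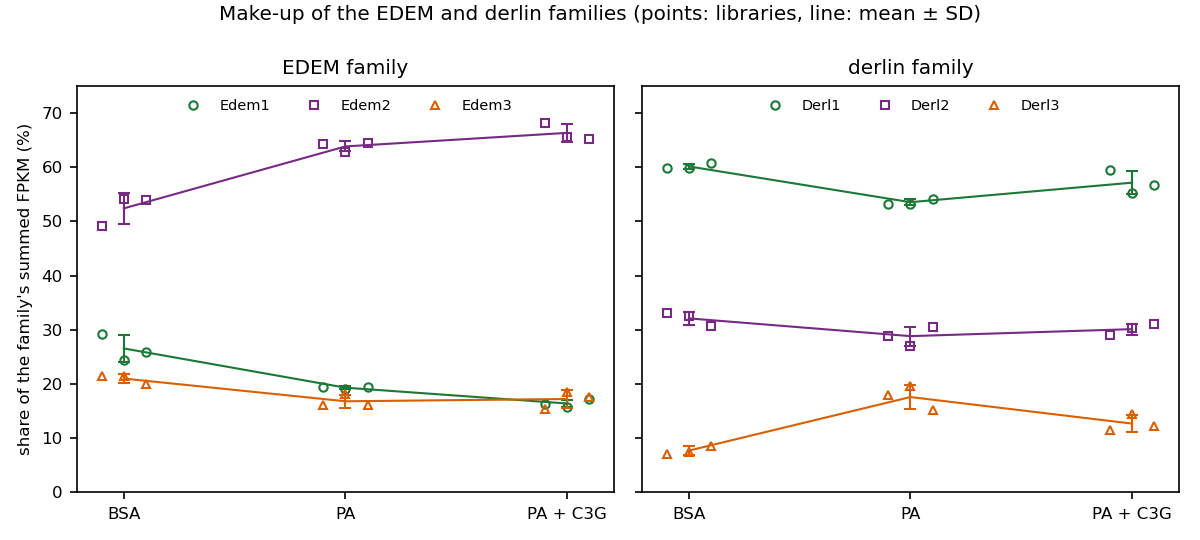
Share of each gene (y axis, %) in the summed FPKM of the EDEM family (left) and the derlin family (right) in BSA, PA and PA + C3G (x axis), with libraries as points and mean ± SD as bars joined by lines. Edem2 goes from 52.4% to 63.9% and 66.4% while Edem1 goes from 26.6% to 19.3% and 16.4%, and Derl3 goes from 7.72% to 17.6% and back to 12.7%.

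Within the derlin family, whose summed level was 78.4 ± 1.85 FPKM in BSA, 118.5 ± 1.42 in PA and 103 ± 5.41 in PA + C3G (SD, n = 3), Derl3 took 7.72 ± 0.76%, 17.6 ± 2.28% and 12.7 ± 1.54%. Derl1 remained the most abundant, with 60.2 ± 0.48%, 53.6 ± 0.58% and 57.2 ± 2.14%. The Derl3 to Derl1 ratio separated the 3 groups without overlap. It differed by 1.35 on the log2 scale between PA and BSA (SE 0.14) and by −0.56 between PA + C3G and PA (SE 0.17), each at the smallest possible p (two-sided exact permutation test, p = 0.10). How reads shared between related genes, such as Derl2 and Derl3, or Derl1 and its annotated pseudogenes, were counted is not stated.

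The order of the genes by FPKM was much the same in the 3 groups, with Os9, Herpud1 and Edem2 the 3 most abundant and Derl3 the least. In BSA the libraries of Os9 and Herpud1 overlapped, as did those of Sel1l and Syvn1 and those of Edem1 and Derl2, and the other neighbours were apart. Sel1l changed places with Derl1, being below it in BSA and above it in PA and PA + C3G. Edem1 went from rank 7 in BSA to 8 in PA and 9 in PA + C3G, where it lay below Derl2 without overlap. It was above Edem3 in BSA and PA, and in PA + C3G the libraries of Edem1 and Edem3 overlapped. The summed level of the 10 genes was 422 ± 8.65 FPKM in BSA, 780.0 ± 16.7 in PA and 665 ± 12.3 in PA + C3G (SD, n = 3). In PA + C3G 8 of the 10 genes lay below PA without overlap, as did 24.0% of all genes tested, and 9 lay above BSA without overlap, as did 19.2%.

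Beyond the 10 genes, 58 others with a role in ERAD were listed, of which 56 were tested, and Sel1l2 and Uggt2 were not analysed here. PA raised 27 of the 56 and lowered 9, with a median log2 fold change of 0.17, where 25.8% and 25.2% of all genes tested were called. The group listed under recognition of misfolded glycoproteins is broad and takes in chaperones such as calnexin. Of its 8 genes 7 rose and 0 fell, with a median of 0.85. Among them were Uggt1, the glucosyltransferase that senses misfolding (log2 fold change 0.88, edgeR adjusted p = 9.62e-08), Canx, the lectin chaperone calnexin (0.81, edgeR adjusted p = 2.83e-07), and Txndc11, a thioredoxin-like partner of the EDEM proteins (1.37, edgeR adjusted p = 1.40e-07). Of the 16 other membrane ligases and their partners 9 rose and 1 fell, and the smallest p-values among the 9 were those of the ligases Rnf185 (1.44, edgeR adjusted p = 1.39e-06) and Marchf6 (0.56, edgeR adjusted p = 8.60e-06) and of Aup1, which recruits a ubiquitin-conjugating enzyme (0.49, edgeR adjusted p = 4.14e-05). Both intramembrane proteases rose, Hm13 by 0.67 and Rhbdd1 by 0.52.

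In the later steps the counts lay nearer to the 25.8% higher and 25.2% lower of all genes tested. Of 11 genes that extract substrates from the membrane 4 rose and 2 fell, with a median of 0.021. The risers included Selenos (1.41, edgeR adjusted p = 5.04e-08) and Ubxn4 (0.85, edgeR adjusted p = 6.18e-08), which tie p97 to the membrane, and Selenok, a selenoprotein of the ER membrane (0.81, edgeR adjusted p = 2.38e-06). Vcp, the gene of p97 itself, rose by 0.18, and values for its cofactors Nploc4 (0.021) and Ufd1 (0.0031) did not pass the test. Of 5 ubiquitin-conjugating enzymes 1 rose, Ube2j1, the membrane-anchored enzyme that works with HRD1 (1.03, edgeR adjusted p = 2.80e-06), and 2 fell, Ube2k (−0.17) and Ube2g1 (−0.24). Of 14 genes for escort and deglycosylation in the cytosol 4 rose and 4 fell, with a median of −0.0094. Ngly1, which strips glycans from the extracted protein, rose by 0.38, and Ube4a, which extends ubiquitin chains, by 0.30, whereas the shuttle factor genes Rad23b (−0.24) and Ubqln1 (−0.11) fell, with Ubl4a (−0.17). Also called lower were the ligase gene Rnf139 (−0.24) and the p97 partners Faf1 (−0.27) and Faf2 (−0.12).

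Relative to PA, 17 of the 56 genes fell in PA + C3G and 4 rose, with a median of −0.020, where 10.2% of all genes tested were lower and 11.1% higher. The 17 included Rnf185 (−0.78, edgeR adjusted p = 0.000596), Ubxn4 (−0.41, edgeR adjusted p = 0.000107), Ube2j1 (−0.33, edgeR adjusted p = 0.0115) and Selenok (−0.33, edgeR adjusted p = 0.00403), all of which PA had raised. The 4 that rose were Ubxn8, Rnf145, Ube2k and Rad23b, named after their values were seen. Each of these was up by 0.38 or less on the log2 scale. Of the 56, the number called in either direction was 21 in all libraries, 10 without PA replicate 1, 10 without PA replicate 3, 11 without PA + C3G replicate 2 and 9 without PA + C3G replicate 3. The number called higher was 2 without any 1 of the PA or PA + C3G libraries. It was also 2 with an equal FPKM sum for every library, with all genes unfiltered and under both limma fits. Relative to BSA, 23 of the 56 were higher in PA + C3G and 4 lower, where 19.0% and 17.9% of all genes tested were called. The number lower was 1 without BSA replicate 1, without BSA replicate 3 and without PA + C3G replicate 3, and 8 with an equal FPKM sum for every library and under both limma fits.

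**Figure D4:**
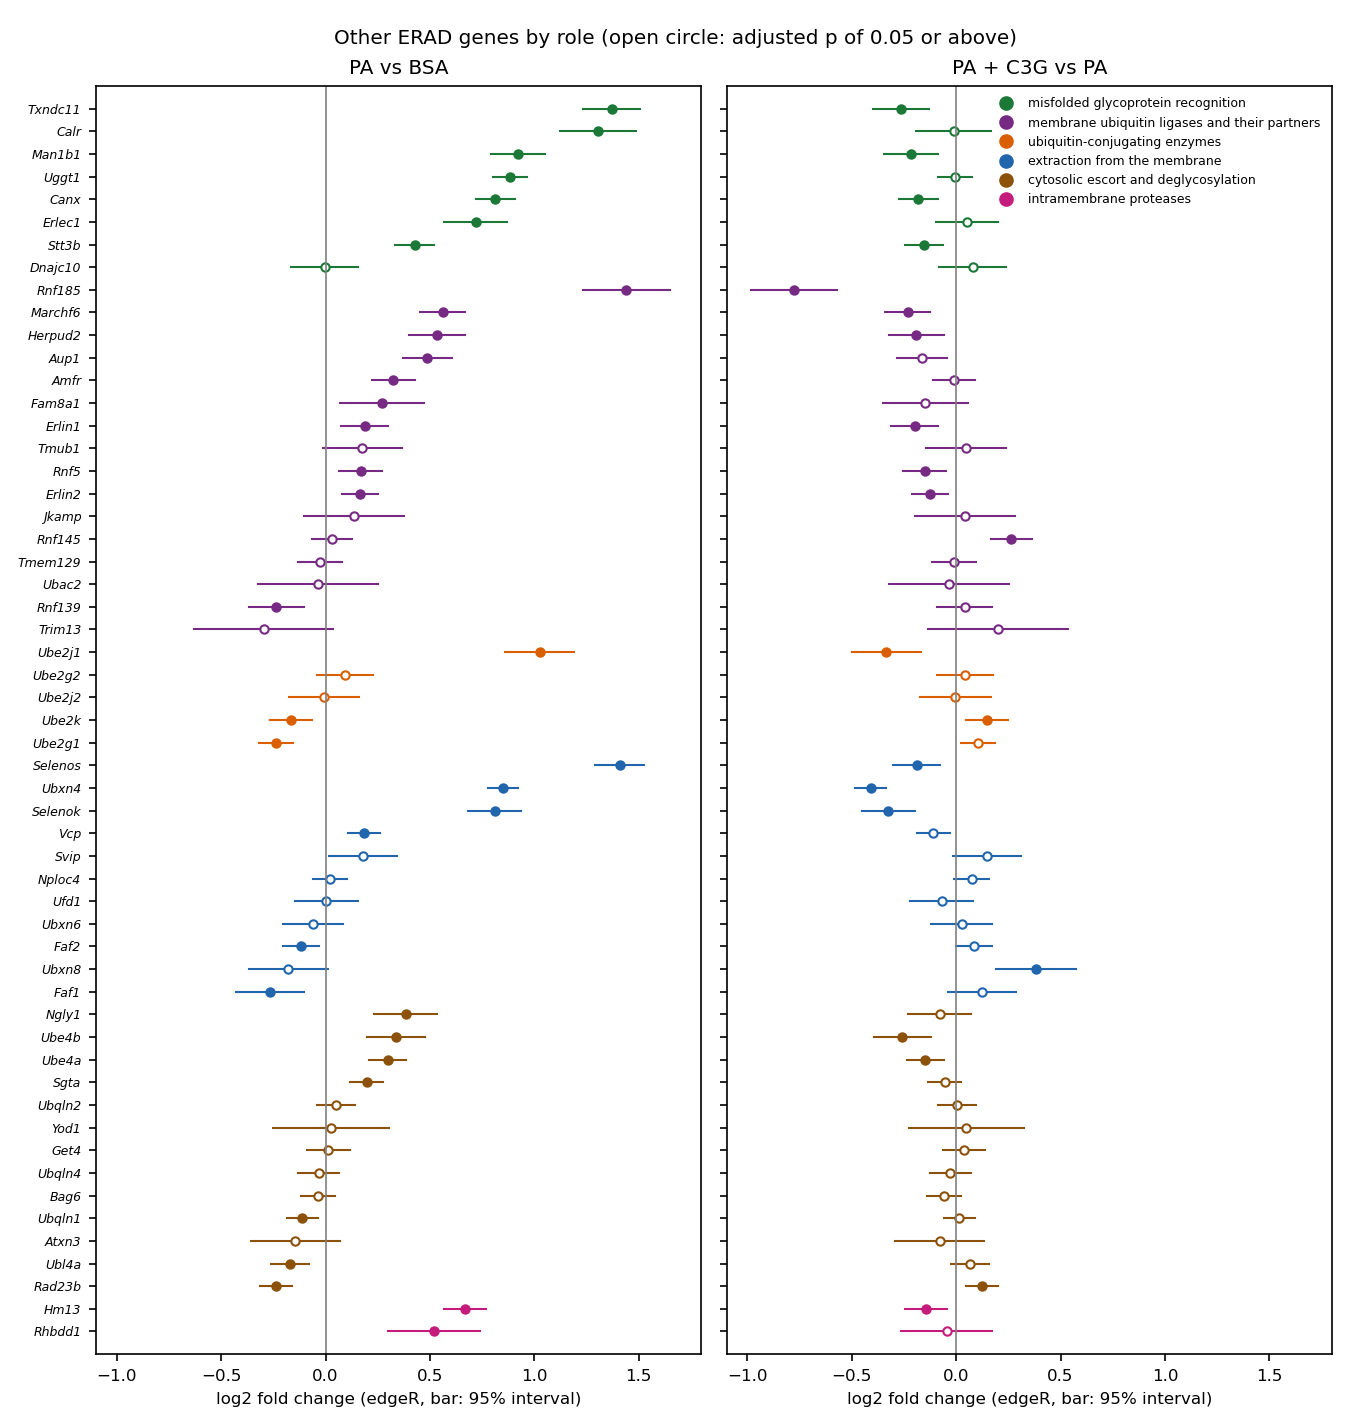
Log2 fold changes (x axis, edgeR, 95% intervals as bars) of 55 of the 56 other ERAD genes, coloured by role, for PA against BSA (left) and PA + C3G against PA (right), with open circles where the adjusted p was 0.05 or above. Genes listed under glycoprotein recognition lie to the right in PA, with 7 of 8 called higher. The cytosolic escort genes scatter about 0, with 4 called higher and 3 lower among those drawn.

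The pattern that the 10 genes share was also looked for among all genes tested. As a description over 9 libraries, which fall into 3 treatment groups, Pearson's r of log2(FPKM + 1) with the mean standardised profile of the 10 was highest for Creg1 (0.998), Fasn (0.997), Uso1 (0.997), Gfpt1 (0.997) and Rab3gap2 (0.997). Fasn encodes fatty acid synthase, Uso1 a tether for vesicles between ER and Golgi, and Gfpt1 the enzyme at the entry of hexosamine synthesis. Their mean levels in BSA, PA and PA + C3G were 47.3, 95.1 and 72.7 FPKM for Fasn, 48.6, 74.1 and 62.9 for Uso1, and 29.0, 49.8 and 39.7 for Gfpt1. Among the 10 genes themselves, which make up that mean, r ran from 0.564 for Edem1 and 0.919 for Os9 to 0.995 for Herpud1.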

How the data were processed

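RNA of INS-1E cells was measured in 9 libraries, 3 each of BSA, PA and PA + C3G, grouped by the treatment in the labels. The authors selected polyadenylated RNA, marked the strand with dUTP and sequenced both ends of the fragments. The submitters' processing notes name cutadapt 1.9, HISAT2 2.0.4, StringTie 1.3.4d, DESeq2 and edgeR without roles. The genome build and the handling of strand and shared reads are not given in the sources used here. The authors deposited estimated counts per gene, not normalized, and FPKM, which the authors scaled to gene length and mapped fragments. The estimated counts are whole numbers, with 2.44 times as many values at 4 as the mean number at 3 and 5, so the independent fragments may be fewer than the counts and precision lower than the totals give. A mean of at least 1 FPKM kept 12958 of 20645 genes.

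Estimated counts were fitted with edgeR 4.0.16 in R 4.3.3 (quasi-likelihood test, TMM, all 9 libraries, Benjamini-Hochberg adjustment over all genes tested). The procedure had first been tried on simulated counts in which far fewer genes changed than were called here, up and down alike. That trial cannot show how the scaling behaves under changes as wide as these. Ratios and shares used FPKM, with exact permutation tests for ratios. Other settings tried were limma 3.58.1 on log2(FPKM + 1) and log2(FPKM + 0.1), a replicate block, counts divided by 4, DESeq2 1.42.0, its median-ratio size factors in edgeR, an equal FPKM sum for every library (TPM scaling), the groups compared alone, all genes unfiltered, a mean of at least 5 FPKM, and each library left out in turn. The 10 genes, the wider list and the tests were chosen with earlier results of these data known. Named beside the 10 genes were, in each role, up to 3 called genes with the smallest p in PA against BSA, every gene called lower there but 1 that is counted and not reported here by name, and the 5 genes most like the members' mean profile. Rnf185, Ubxn4, Ube2j1 and Selenok in PA + C3G against PA, and Vcp, Nploc4 and Ufd1, were named for their values or roles outside this rule. Promoter sequences came from RefSeq (GRCr8) and matched 8 of the 10 genes by symbol.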

Additional observations from a re-analysis of the deposited data

How the results depend on the processing

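All 10 calls in PA against BSA and all 9 in PA + C3G against BSA were kept, with their direction, in each of the alternatives named above, and each number of ERAD genes, of the wider list and of all genes called in either direction in these comparisons stayed within 1.5 times its value. Taken alone, the genes of the wider list called lower in PA + C3G against BSA numbered 1 to 8, against 4. In PA + C3G against PA, the median log2 fold change of the 10 genes moved to −0.29 under TPM scaling. In PA + C3G against BSA it moved to 0.50 under TPM scaling, 0.49 under limma on log2(FPKM + 1) and 0.50 under limma on log2(FPKM + 0.1). The median over all genes tested moved as well, from −7e-04 to −0.0899 under TPM scaling in PA + C3G against PA. In PA + C3G against BSA the all-gene median went from 0.0067 to −0.053 under TPM scaling. It was −0.0488 there under limma on log2(FPKM + 1) and −0.0537 under limma on log2(FPKM + 0.1). The cause was not tested. Leaving out 1 library at a time, the ERAD genes called in PA + C3G against PA numbered 4 to 7, those of the wider list 9 to 20 and all genes 1718 to 2838. Os9 in PA + C3G against PA was −0.055 under TPM scaling, −0.0032 under both limma fits and −0.0044 to 0.067 without single libraries. Over these alternatives Syvn1, Edem2 and Edem3 reached edgeR adjusted p of up to 0.0784, 0.107 and 0.116 in that comparison. With the replicate number as a block, 10, 7 and 9 of the ERAD genes were called, as without it, and 36, 22 and 29 of the wider list. The numbers share no stated batch. Deviations of same-numbered libraries from their group means correlated at −0.047 to 0.105 across genes over 9 pairs, 5 of which were the highest for their number. In PA + C3G against PA every same-numbered pair was the highest for its number (0.105, 0.0916 and 0.0241). All genes called in that comparison numbered 2752 without the block and 3118 with it, so a weak pairing there cannot be set aside. With 3 libraries a group, exact tests of single ratios cannot fall below a p of 0.10.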
